A study of Rattus norvegicus with 47 samples.

Results

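The histone deacetylases were read by 8 probes for 7 genes, taken as every probe whose gene symbol is Hdac followed by a number, out of 20500 probes for 9645 genes. They were Hdac1 (probe 13287, Gene ID 297893), Hdac2 (probe 21765, Gene ID 84577), Hdac3 (probe 5013, Gene ID 84578), Hdac5 (probes 1165 and 16483, Gene ID 84580), Hdac6 (probe 3834, Gene ID 84581), Hdac8 (probe 13354, Gene ID 363481) and Hdac11 (probe 17570, Gene ID 297453). RefSeq numbers 11 rat Hdac genes, and Hdac4, Hdac7, Hdac9 and Hdac10 are not analysed here. The animals were male Sprague-Dawley rats 90 days old, each dosed once into the peritoneum. In 4 groups the rats had methoxyacetic acid (MAA) at 650 mg/kg and were killed 4, 8, 12 or 24 h later, with 6 rats at each time. The groups they were set against had saline and were killed at the same times, with 5 rats at 4 h and 6 at each other time. RNA of testis parenchyma, which holds germ cells of every stage together with Sertoli, Leydig, myoid, blood vessel and immune cells, was hybridised on 47 arrays of 2 colours, 1 rat per array, with the second dye carrying a universal rat reference RNA.

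Histone deacetylases take acetyl groups off lysines of histones and other proteins. The class I enzymes Hdac1, Hdac2, Hdac3 and Hdac8 work mainly in the nucleus. Hdac1 and Hdac2 are the catalytic subunits of the Sin3, NuRD and CoREST corepressor complexes, and Hdac3 that of the NCoR/SMRT complex. Hdac5, of class IIa, shuttles between nucleus and cytoplasm and holds back Mef2 transcription factors. Hdac6, of class IIb, deacetylates tubulin, and Hdac11 is the single enzyme of class IV. MAA, the active metabolite of ethylene glycol monomethyl ether, is toxic to spermatocytes and, like butyric and valproic acid, inhibits deacetylases. The comparison with saline asks whether the transcripts of these enzymes differ after the exposure.

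Each value below is M, the log2 ratio of testis to reference signal on 1 array, and a change is the difference of M, MAA minus saline, from the limma fit. A probe is said to have passed where its Benjamini-Hochberg adjusted p over all 20500 probes was under 0.05. The labels give Cy5 as the testis dye, whereas the files show testis in the channel headed Cy3. The median log2 ratio of Cy3 to Cy5 was 0.78 over 8 spermatocyte genes, above 0 on 47 of 47 arrays, and -1.10 over 6 endothelial genes, above 0 on 0 of 47. Cy3 was therefore taken as testis, and with the dyes of the labels every sign would turn. Arrays differed in brightness, with median testis signals from 431 to 1749 units and 43.5% to 97.2% of probes above background. The arrays of MAA_12h animal 27 and MAA_8h animal 15 share 1 reference channel, and the 12 h changes of the Hdac probes and of the list genes that passed are also given without the first of them. Without the second no Hdac probe passed at 8 h.

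Of the 8 probes, 1 passed. Hdac1 was higher in MAA than in saline testes at 12 h, by 1.35-fold. No Hdac probe passed at 4, 8 or 24 h, where 0.0195%, 0.00976% and 2.99% of all probes passed. At 12 h 2.54% of all probes passed in either direction and 1.69% were higher in MAA. At an unadjusted p under 0.05 the counts were 0, 1, 4 and 0 of 8 Hdac probes at 4, 8, 12 and 24 h, against 7.4%, 7.11%, 14.7% and 14.3% of all probes. The 4 at 12 h, which were Hdac1, Hdac5 (probe 16483), Hdac6 and Hdac8, all lay above 0, and 9.48% of all probes did so at that threshold. Of these 4, Hdac8 was above background on only 1 of 6 arrays in each 12 h group.

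The promoters of Hdac1 and Hdac2, class I enzymes of the same complexes, are shown because Hdac1 is the member that passed and Hdac2 is its closest relative. GC boxes, which bind Sp1, and CCAAT boxes, which bind NF-Y, are known elements of the mouse Hdac1 promoter. A difference between the changes of the 2 genes was not tested, and the windows are shown as background only. Both windows are RefSeq promoter windows of build GRCr8, from 250 bases before the gene's start to 50 after it, read 5′ to 3′ along the gene. Capitals mark GGGCGG and CCAAT on either strand.
Hdac1 at chr5:147165338-147165637, minus strand: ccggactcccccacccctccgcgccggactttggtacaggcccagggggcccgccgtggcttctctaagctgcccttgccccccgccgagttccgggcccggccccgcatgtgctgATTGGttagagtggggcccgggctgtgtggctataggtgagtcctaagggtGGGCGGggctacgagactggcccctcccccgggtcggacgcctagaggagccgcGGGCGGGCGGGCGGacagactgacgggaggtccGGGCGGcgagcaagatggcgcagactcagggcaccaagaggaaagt
Hdac2 at chr20:42102877-42103176, plus strand: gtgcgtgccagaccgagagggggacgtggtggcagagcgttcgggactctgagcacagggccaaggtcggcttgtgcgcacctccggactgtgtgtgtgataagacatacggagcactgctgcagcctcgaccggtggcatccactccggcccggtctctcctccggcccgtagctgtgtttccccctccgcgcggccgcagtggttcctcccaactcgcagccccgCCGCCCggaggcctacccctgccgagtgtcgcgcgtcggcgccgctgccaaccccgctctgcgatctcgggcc
The Hdac1 window held 5 GGGCGG matches, of which 3 overlap one another starting 29, 25 and 21 bases before the gene's start, and 1 CCAAT match, read as ATTGG on the gene's strand, 134 bases before it. The Hdac2 window held 1 GGGCGG match and no CCAAT. Of the 7 genes 6 have a window in the table. Hdac6 held 2 CCAAT and 4 GGGCGG matches, Hdac5 held 2 and 1, Hdac3 held 0 and 3, and Hdac8 held neither. Over 33469 rat promoter windows of the same length 37.5% held CCAAT, 33.1% held GGGCGG and 11.8% held both. These are matches of letters only.

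Hdac1 had a raw testis signal between 3401 and 19928 units, above background on 47 of 47 arrays. At 12 h M was 0.81, 1.10, 1.22, 0.85, 1.48 and 1.30 in the MAA testes of animals 27, 36, 32, 35, 31 and 28. It was 0.59, 0.90, 0.47, 0.98, 0.73 and 0.91 in the saline testes of animals 25, 49, 34, 30, 26 and 29. Of the 6 MAA testes 4 lay above every saline testis, and the other two, animals 27 and 35, lay inside the saline range. The groups averaged 1.13 ± 0.26 in MAA and 0.76 ± 0.20 in saline (SD, n = 6 each). The fitted change was 0.43 ± 0.11 (SE; 95% interval 0.20 to 0.66), with an adjusted p of 0.0355 in limma. Hybridisation dates holding both treatments gave 0.57 (2 MAA against 2 saline arrays) and 0.41 (1 against 2). Without animal 27 the change was 0.46 and passed.

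The Hdac1 call depended on single arrays and on the scaling. In 9 of 47 fits that left out 1 array it no longer passed in limma. The adjusted p was then 0.0962, 0.0527, 0.124 and 0.0682 without MAA_12h animals 36, 32, 31 and 28, 0.0549 without MAA_4h animal 8, and 0.0644, 0.0867, 0.122 and 0.0735 without saline_12h animals 25, 34, 26 and 29, with changes from 0.37 to 0.45 in these fits. It passed under 3 of 12 other settings, and with each array centred on its median in place of loess the change was 0.17. The 12 settings are not separate checks. Among them is the series table, where 39 of 47 columns equal the ratio of another array. Leaving out animal 27 is also 1 of the 47 fits above. With only probes above background on at least 24 arrays the change was the same 0.43, adjusted over fewer probes. RefSeq lists 19 other rat loci named as Hdac1 copies, and whether this probe also reads them was not tested.

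At the other times Hdac1 M averaged 0.96 ± 0.29 in MAA and 0.91 ± 0.19 in saline at 4 h (SD, n = 6 and 5). At 8 h it averaged 0.86 ± 0.17 in MAA and 0.88 ± 0.09 in saline, and at 24 h 0.89 ± 0.23 and 0.83 ± 0.11 (SD, n = 6 each). The groups overlapped at all 3 times, and the fitted changes were 0.088, 0.021 and 0.087 with intervals reaching no further than 0.32. The change at 12 h exceeded that at 8 h by 0.41 (limma, unadjusted p = 0.00839, adjusted p = 0.453). An F test of the MAA effect between the 4 times gave Hdac1 an unadjusted p of 0.0408 and an adjusted p of 0.428. No Hdac probe passed that test, which 0.127% of all probes passed, so a difference of the Hdac1 effect between times was not shown.

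**Figure D1:**
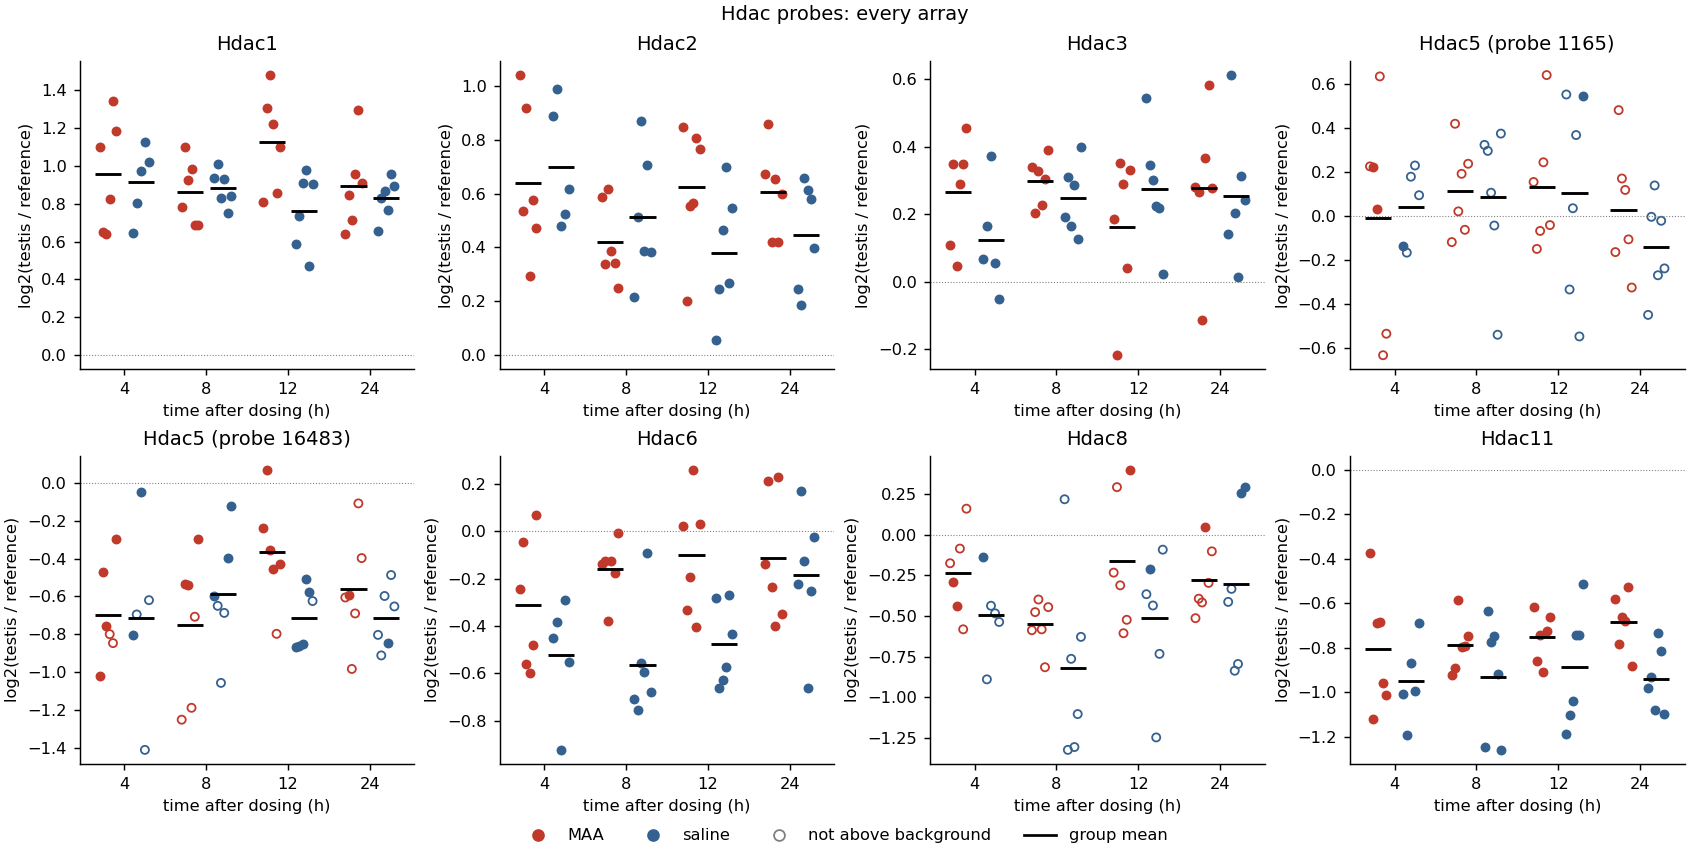
M, the log2 ratio of testis to reference, for each of the 8 Hdac probes on every array, by time after dosing in hours, with MAA (red) left of saline (blue); filled points are above background, open points are not, and bars are group means. At 12 h 4 of the 6 MAA points for Hdac1 lie above all saline points, while the points of Hdac5 probe 1165 and Hdac8 are mostly open.

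The plot of M by array shows how far the other class I enzymes overlapped between treatments. Hdac2, the partner of Hdac1 in the same complexes, lay between 0.20 and 0.85 in MAA testes (median 0.67) and between 0.055 and 0.70 in saline testes (median 0.37) at 12 h. Of the 6 MAA testes 3 were above every saline testis, and the fitted change was 0.15 ± 0.13 (SE; 95% interval -0.12 to 0.42). At 4, 8 and 24 h the Hdac2 changes were -0.079, -0.19 and 0.058, each with an interval that includes 0. The 12 h intervals of Hdac1 and Hdac2 overlap, and the difference between the 2 probes was not tested.

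Hdac3, the enzyme of the NCoR/SMRT complex, showed the narrowest spread of the 8 probes, with a pooled within-group SD of 0.171. At 12 h it lay between -0.22 and 0.35 in MAA testes (median 0.24) and between 0.022 and 0.54 in saline testes (median 0.26). The ranges overlapped. Its changes were 0.15, 0.078, -0.080 and 0.043 at 4, 8, 12 and 24 h, and the 4 intervals together run from -0.36 to 0.42.

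Hdac8, a class I enzyme known in human cells to deacetylate the cohesin subunit Smc3, was above background on 8 of 47 arrays, so its values rest on signal close to the limit of the array. At 12 h it lay between -0.61 and 0.40 in MAA testes (median -0.27) and between -1.25 and -0.092 in saline testes (median -0.40). The ranges overlapped, with 2 MAA testes above every saline testis, and 1 array of each group was above background. The fitted change was 0.55 ± 0.19 (SE; 95% interval 0.17 to 0.93), with an adjusted p of 0.110 in limma, so Hdac8 did not pass. It was 0.20 with the testis channel alone (adjusted p = 0.765), 0.35 without the date term, which did not pass either, and 0.32 and 0.81 within 2 single dates. At 8 h neither group had an array above background, and no fold is given. The fitted changes at 4 and 24 h were 0.19 and -0.033.

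Hdac5 was read by 2 probes whose values differed at 12 h, a difference that was not tested. Probe 16483 was above background on 24 of 47 arrays, 5 of 6 in each group at 12 h. At that time M lay between -0.80 and 0.068 in MAA testes (median -0.39) and between -0.87 and -0.51 in saline testes (median -0.74). Of the 6 MAA testes 5 were above every saline testis. The change was 0.57 ± 0.17 (SE; 95% interval 0.22 to 0.92), with an adjusted p of 0.0635 in limma. Among probes above background on at least 24 arrays the adjusted p was 0.0309. It was also under 0.05 without MAA_24h animal 39 (0.0396) and without saline_4h animal 9 (0.0475). The change was smaller without the date term (0.35, adjusted p = 0.335), with the testis channel alone (0.36, adjusted p = 0.232) and with the date as a random block (0.38, not passed), and it was 0.71 and 0.17 within 2 single dates. At 4, 8 and 24 h the changes on this probe were 0.14, -0.0070 and 0.25, each with an interval that includes 0.

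Probe 1165 for Hdac5 was above background on 4 of 47 arrays. At 12 h it lay between -0.15 and 0.64 in MAA testes (median 0.057) and between -0.55 and 0.55 in saline testes (median 0.20), where 0 MAA arrays and 1 saline array were above background. Its fitted change was -0.051 (95% interval -0.44 to 0.34), and at 4 h it was -0.14. At 8 and 24 h no array of either group was above background. The interval of this probe reaches into that of probe 16483, and the deviations of the 2 probes from their fitted values had a Pearson r of -0.039 over 47 arrays. Which transcripts of Hdac5 each probe reads is not given in the sources used here.

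Hdac6, the tubulin deacetylase, was above background on 47 of 47 arrays. At 8 h M lay between -0.38 and -0.0078 in MAA testes (median -0.13) and between -0.75 and -0.094 in saline testes (median -0.64). All 6 MAA testes were above the saline median, and 5 of 6 saline testes were below every MAA testis. The change was 0.36 ± 0.14 (SE; 95% interval 0.076 to 0.64), with an adjusted p of 0.591 in limma. At 12 h it was 0.33 ± 0.15 (95% interval 0.033 to 0.63; adjusted p = 0.270), with 4 of 6 MAA testes above every saline testis. Within single hybridisation dates the Hdac6 difference was 0.29 and 0.40 at 8 h and 0.38 at 12 h on each of 2 dates. Hdac6 thus had positive differences on every date that holds both treatments at these times, without passing. At 4 and 24 h its changes were 0.19 and 0.018.

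Hdac11, of class IV, was above background on 47 of 47 arrays and below the reference on all of them. Its changes were 0.12, 0.10, 0.13 and 0.19 at 4, 8, 12 and 24 h. At 24 h M lay between -0.88 and -0.53 in MAA testes (median -0.67) and between -1.10 and -0.73 in saline testes (median -0.96). All 6 MAA testes were above the saline median and 4 above every saline testis, yet the interval of the change ran from -0.047 to 0.43 and the adjusted p was 0.503 in limma.

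**Figure D2:**
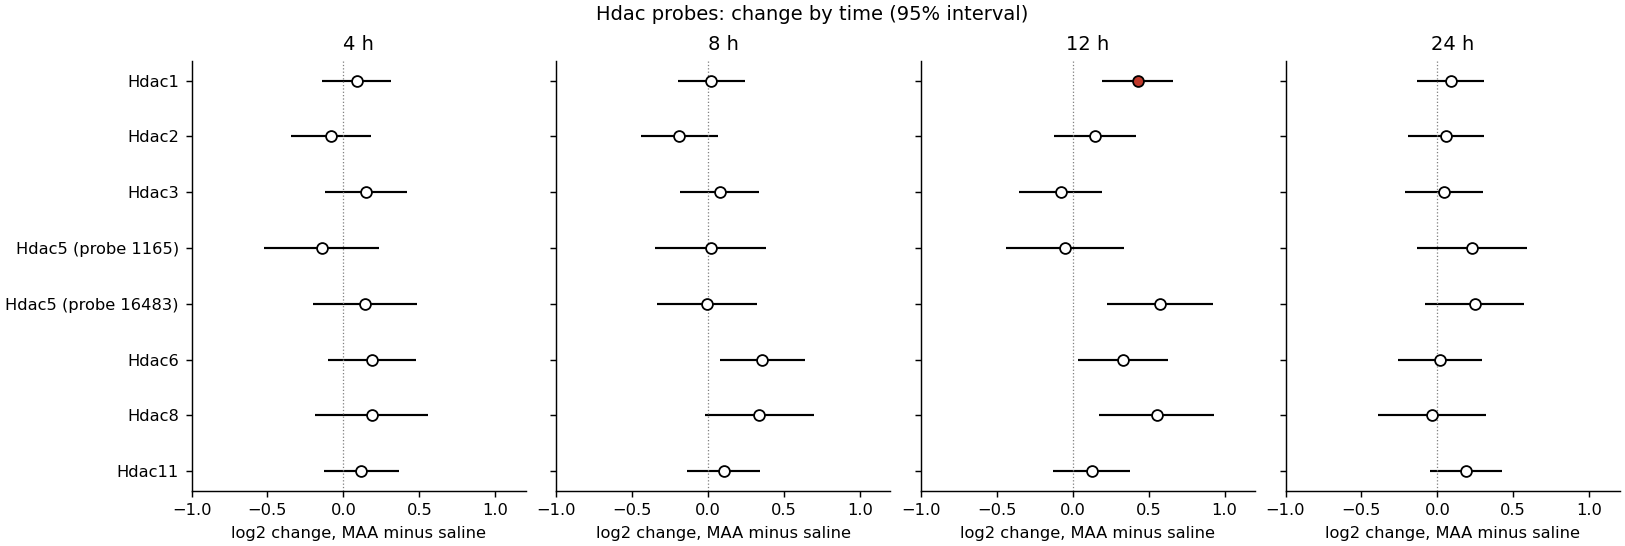
Fitted log2 change of M, MAA minus saline, for each Hdac probe (rows) at 4, 8, 12 and 24 h (panels), with 95% intervals as lines; a filled point marks an adjusted p under 0.05. Hdac1 at 12 h, at 0.43, is the filled point, and the intervals of Hdac5 probe 16483, Hdac6 and Hdac8 at 12 h lie above 0.

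Across the set, 6, 6, 6 and 7 of 8 probes had a change above 0 at 4, 8, 12 and 24 h, where 51.2%, 52.3%, 56.3% and 54% of all probes did. The median change over the 8 probes was 0.13, 0.050, 0.24 and 0.072, against 0.0054, 0.010, 0.037 and 0.022 over all probes. The plot of changes by time shows that the spread among the Hdac probes was largest at 12 h, from -0.080 for Hdac3 to 0.57 for Hdac5 probe 16483. After groups and dates were fitted, the 28 pairs of probes had correlations between -0.36 and 0.36 with a median of -0.015, 14 of them positive. All probes share the arrays and the reference RNA. Without MAA_12h animal 27 the 12 h changes were 0.17 for Hdac2, -0.084 for Hdac3, -0.061 and 0.52 for Hdac5 probes 1165 and 16483, 0.35 for Hdac6, 0.51 for Hdac8 and 0.12 for Hdac11, and none of these passed.

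Among the saline testes alone no Hdac probe passed an F test between the 4 saline groups, which 0.00488% of all probes passed, and the lowest unadjusted p was 0.0561, for Hdac8. Over the 23 saline arrays Hdac1 averaged 0.84 ± 0.15, Hdac2 0.50 ± 0.24 and Hdac3 0.23 ± 0.16 relative to the reference (SD, n = 23). Hdac6 averaged -0.43 ± 0.27 and Hdac11 -0.93 ± 0.21 (SD, n = 23). Each value compares testis with the reference for that probe alone.

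**Figure D3:**
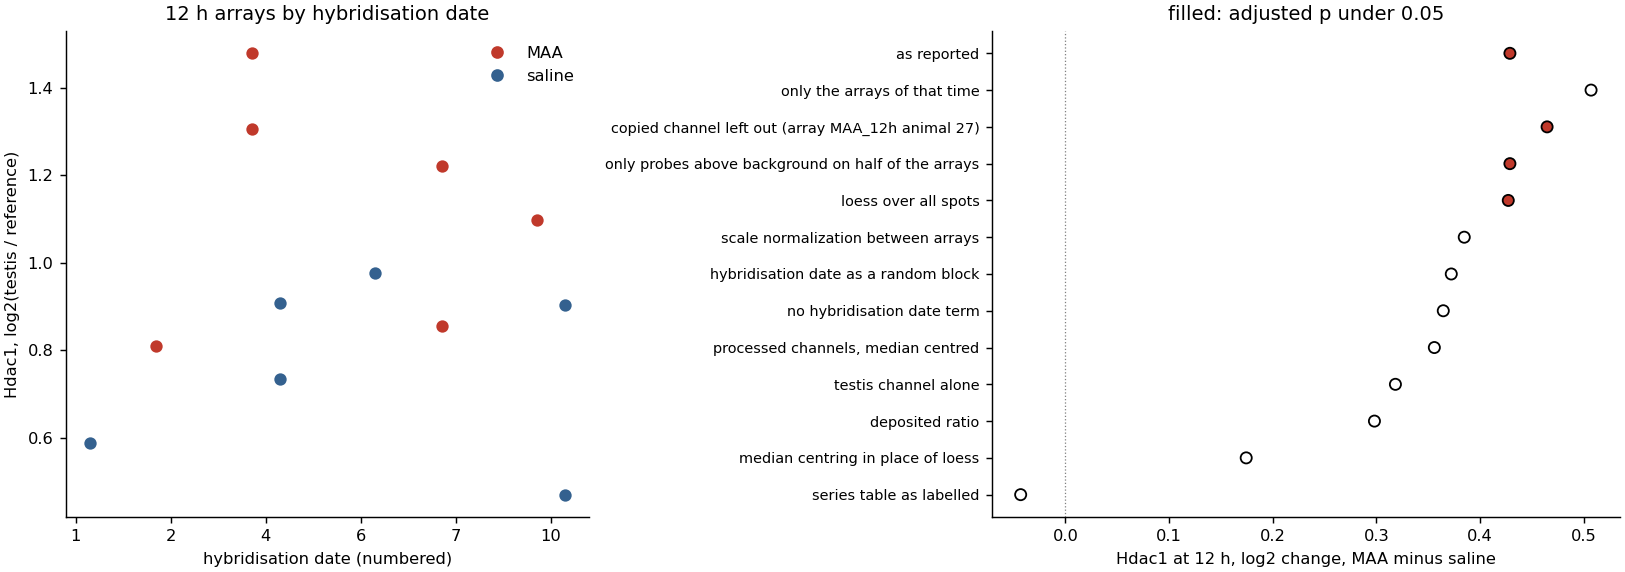
Left, Hdac1 M on the 12 h arrays by hybridisation date (numbered), MAA (red) left of saline (blue); right, the Hdac1 change at 12 h as reported and under other settings, filled where the adjusted p was under 0.05. The change stays above 0 in every setting shown except the series table as labelled, and is filled in the reported fit and 3 others.

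Markers of cell types were followed in the same comparison. At 12 h the mean M of 8 spermatocyte markers lay between 0.40 and 0.73 in MAA testes and between 0.76 and 0.90 in saline testes, with no overlap, and 3 of the 8 passed, all lower, namely Sycp1, Sycp2 and Sycp3 of the synaptonemal complex. Another 4 of the 8 had changes above 0, between 0.14 for Ldhc and 0.19 for Ybx2, and did not pass. The mean of 12 Sertoli cell markers lay between 0.17 and 0.23 in MAA testes and between -0.30 and 0.14 in saline testes, also with no overlap. Of the 12, 1 passed, Inha, higher, and 8 had a change above 0, where 56.3% of all probes did. Without animal 27 the MAA testes lay between 0.44 and 0.73 for the spermatocyte mean and between 0.18 and 0.23 for the Sertoli mean. Of 5 myoid markers 2 were higher, of 9 elongating spermatid markers 2, of 6 spermatogonial markers 1, and of 6 round spermatid, 4 Leydig, 7 macrophage and 6 endothelial markers 0 passed. Of all probes 2.54% passed at 12 h in either direction, and 1.69% passed as higher. The mean of the myoid markers lay between -1.98 and -1.54 in MAA testes and between -2.21 and -1.80 in saline testes. The part of these shifts in the 12 h results was not tested. In whole-testis RNA fewer cells of a type and less RNA per cell cannot be told apart.

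For each Hdac probe above background on at least 24 arrays, the 3 genes with the highest Pearson correlation of date-adjusted M over the 47 arrays were found among 8058 probes. Differences between the groups were kept in that M, so the choice favours genes whose changes are like those of the Hdac probe. Hdac1 was most like Mras, a Ras-family GTPase (r = 0.67), Sh3bp5 (r = 0.66) and Apln, which encodes the peptide apelin (r = 0.66). Of these Mras and Apln passed at 12 h, with changes of 0.74 (adjusted p = 0.0200) and 0.75 (adjusted p = 0.00399), and Sh3bp5 did not (0.40, adjusted p = 0.147). Since they were chosen for their likeness to Hdac1, this is no separate support for its change. Hdac6 was most like Fam193a (r = 0.68), Itpka (r = 0.65) and Il1a (r = 0.64). Hdac11 was most like the spermatid gene Spata19 (r = 0.72), Traf4 (r = 0.69) and Tpd52l2 (r = 0.67). Hdac5 probe 16483 was most like Serpinb2 (r = 0.63), Ssbp3 (r = 0.62) and Tnik (r = 0.62). Hdac2 was most like Unc119 (r = 0.62), Dmrtc1a (r = 0.62) and Myoz1 (r = 0.61). Hdac3 had the lowest values, with Irf9 (r = 0.53), Mov10 (r = 0.51) and Ythdf2 (r = 0.50). These are descriptions over arrays that share groups, dates and reference.

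Genes that work with or against the deacetylases, and genes known to be raised by their inhibitors, were followed in 7 lists, 94 genes in all with 1 probe each. None passed at 4 or 8 h. At 12 h 2 were higher and 1 lower, which is 3.19% of the 94 against 2.54% of all probes, and at 24 h 2 were higher and 3 lower, 5.32% against 2.99%. These sets are not alike, since the 94 are each gene's probe brightest in testis and all probes include dim ones and ones without a symbol. The median change over the 94 genes was 0.0031, -0.0064, 0.082 and 0.087 at 4, 8, 12 and 24 h.

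The corepressor list holds the subunits that bring Hdac1, Hdac2 and Hdac3 into their complexes. Of its 24 measured genes 1 was lower at 12 h, and 1 was higher and 2 lower at 24 h. Of all probes 2.54% and 2.99% passed at these times. In the same list 17 of 24 genes had a change above 0 at 12 h, where 56.3% of all probes did. At 24 h 14 of 24 did, where 54% of all probes did. Mta1, a NuRD subunit that binds Hdac1, lay between -0.79 and -0.33 in MAA testes (median -0.62) and between -0.32 and 0.11 in saline testes (median -0.041) at 12 h. The 12 h ranges met without overlapping, and Mta1 fell by 0.60 ± 0.14 (SE; adjusted p = 0.0158 in limma). At 24 h it lay between -1.10 and -0.40 in MAA testes (median -0.55) and between -0.48 and 0.16 in saline testes (median -0.10), and fell by 0.57 ± 0.13 (adjusted p = 0.0117). It passed at both times under 10 of 10 other settings, which leave out the single-time fits and the series table read for Hdac1. The Mta1 change was -1.01 and -1.03 with median centring and, at 12 h, -0.64 without MAA_12h animal 27. The adjusted p rose to 0.0943, 0.0589 and 0.0619 at 12 h without MAA_12h animals 36 and 31 and saline_12h animal 29, and to 0.0693 and 0.0580 at 24 h without MAA_24h animal 40 and saline_24h animal 41.

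Mbd3, the methyl-CpG-binding-domain subunit of NuRD, lay between -0.36 and 0.40 in MAA testes (median -0.26) and between 0.22 and 0.63 in saline testes (median 0.32) at 24 h. All but 1 of the MAA testes were below every saline testis. Mbd3 fell by 0.61 ± 0.14 (SE; adjusted p = 0.0117 in limma), passed under 10 of 10 other settings (-0.92 with median centring), and had an adjusted p of 0.0540 without saline_24h animal 38. Sin3b, a scaffold of the Sin3 complex, lay between 0.98 and 1.90 in MAA testes (median 1.65) and between 0.75 and 1.05 in saline testes (median 0.94) at 24 h on its brightest probe. It rose there by 0.64 ± 0.13 (SE; adjusted p = 0.00417), in 47 of 47 fits that left out an array, but by 0.32 with median centring (adjusted p = 0.479). A second Sin3b probe, above background on all 12 arrays, gave -0.12 (adjusted p = 0.678), so these probes of the gene disagree. Sin3b has 4 probes, and those numbered 8435 and 15643 were above background on 0 MAA arrays at 24 h. At 12 h the brightest Sin3b probe had a change of 0.49 (adjusted p = 0.0504 in limma) and did not pass. At 24 h the mean of the spermatocyte markers lay between 0.37 and 0.62 in MAA testes and between 0.61 and 0.85 in saline testes, and 1 of 8, Mlh3, passed, lower. The Sertoli mean lay between 0.12 and 0.39 in MAA testes and between -0.035 and 0.14 in saline testes, with Ctsl higher by 0.90. Of the 12 Sertoli markers 8 had a change above 0, where 54% of all probes did. Star of the 4 Leydig markers was higher by 1.08 and Myl9 of the 5 myoid markers by 0.58. At 24 h 2.99% of all probes passed in either direction. Of 9 elongating spermatid markers 7 were above 0 at an unadjusted p under 0.05, where 14.3% of all probes reached that threshold in either direction, and none passed. The part of these shifts in the 24 h results was not tested.

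**Figure D4:**
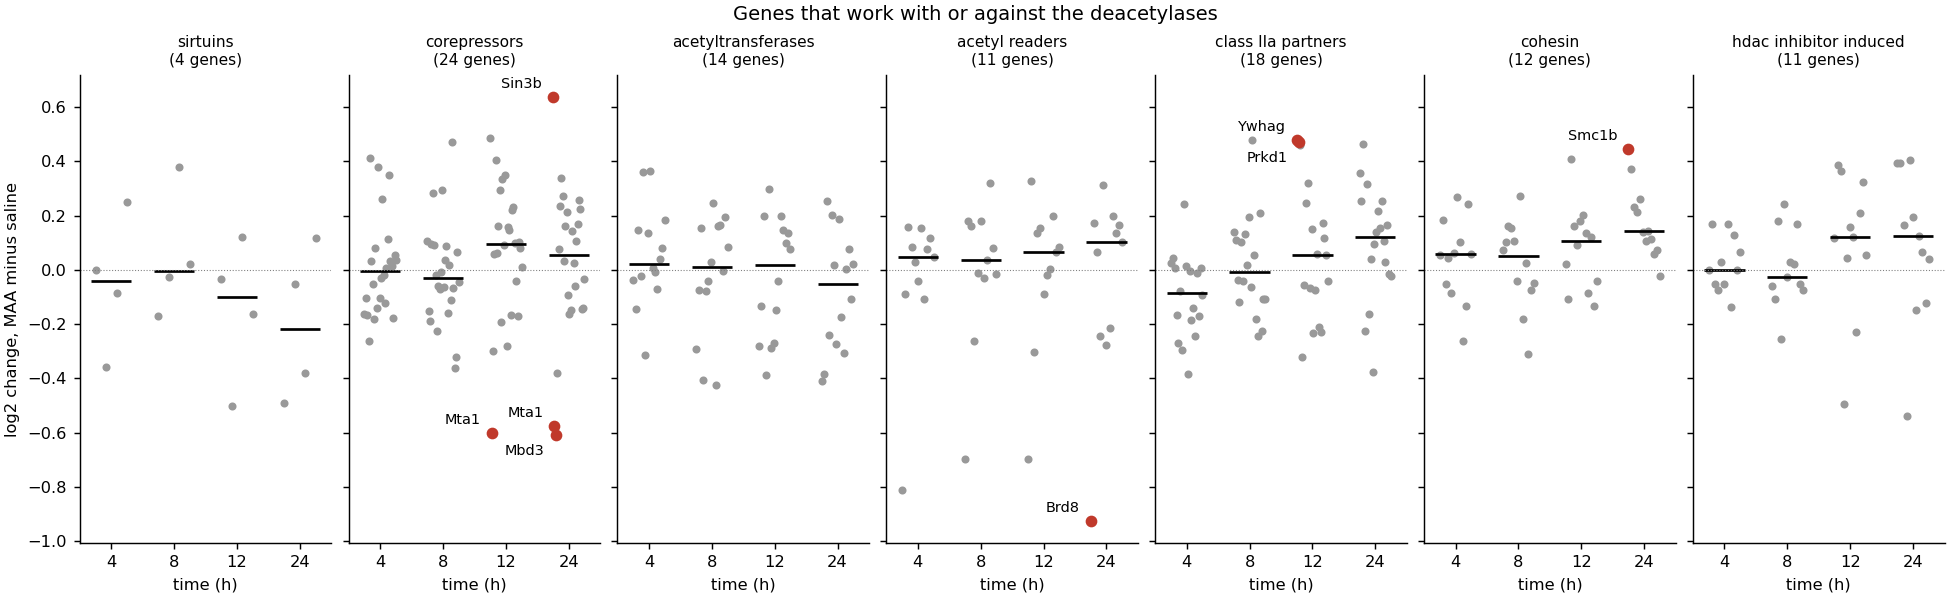
Log2 change, MAA minus saline, of each gene in the 7 lists at 4, 8, 12 and 24 h; red points passed and are named, grey points did not, and bars are list medians. The passing genes lie at 12 and 24 h, with Mta1 lower at both times and Sin3b higher at 24 h.

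Partners of the class IIa enzymes were counted beside Hdac5. At 12 h 1.69% of all probes passed as higher. Of 18 genes 2 were higher at 12 h, namely Ywhag, a 14-3-3 protein of the family that holds phosphorylated class IIa enzymes in the cytoplasm (0.48 ± 0.12 SE; adjusted p = 0.0218 in limma), and Prkd1, protein kinase D1 (0.47 ± 0.13 SE; adjusted p = 0.0467). Ywhag did not pass in 6 of 47 fits without an array, those of MAA_12h animals 36, 31 and 28 and saline_12h animals 30, 26 and 29 (adjusted p up to 0.117). It passed under 6 of 10 other settings, among them that without MAA_12h animal 27 (0.55), and not with median centring (0.25, adjusted p = 0.688), the testis channel alone (0.33), the processed channels (0.33) or the deposited ratio (0.36). Its second probe gave 0.37 (adjusted p = 0.144). Prkd1 did not pass in 33 of 47 such fits, with changes between 0.37 and 0.49 (0.37 without MAA_12h animal 27, adjusted p = 0.108). It passed under 2 of 10 other settings, and was 0.20 with the testis channel alone (adjusted p = 0.681), 0.31 with median centring and 0.33 without the date term. Its other 3 probes gave 0.47, -0.49 and -0.026 at 12 h. The probe at -0.49 was above background on only 1 of 6 MAA and 3 of 6 saline arrays. Ywhah, another 14-3-3 gene, had a change of 0.46 at 24 h (adjusted p = 0.108). Ywhaz, of the same family, went the other way, with -0.32 at 12 h (adjusted p = 0.121 in limma) and -0.23 at 24 h. Ywhae, Ywhaq and Ywhab had -0.057, 0.057 and 0.12 at 12 h and 0.32, 0.16 and 0.17 at 24 h, and did not pass.

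The cohesin list, beside Hdac8, had 1 of 12 genes higher at 24 h, where 2.99% of all probes passed in either direction. Smc1b, the meiotic cohesin subunit, rose by 0.45 ± 0.13 (SE; adjusted p = 0.0451 in limma), and did not pass in 27 of 47 fits without an array (changes of 0.37 to 0.49). It passed under 4 of 10 other settings, and was 0.18 with median centring (adjusted p = 0.734), 0.31 without the date term (adjusted p = 0.317) and 0.34 with the date as a random block (adjusted p = 0.219). Smc3, the human substrate of Hdac8, had a change of 0.37 at 24 h (adjusted p = 0.127) and Pds5b 0.41 at 12 h (adjusted p = 0.199).

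Among 11 readers of acetyl-lysine 1 passed, Brd8, a bromodomain subunit of an acetyltransferase complex. It was lower in MAA testes at 24 h, when 2.99% of all probes passed. The adjusted p of 0.0110 in limma belongs to the fitted change. By a bound that was not itself tested, Brd8 was at least 1.40-fold lower there. Brd8 was not well above background on any MAA array and was above it on 5 of 6 saline arrays, and the bound sets the saline mean against the higher of Brd8's own signal and the dimmest signal above background on each MAA array. Without MAA_24h animal 40 its adjusted p was 0.0515, and with median centring 0.120. Brd3 had a change of 0.33 at 12 h (adjusted p = 0.0919) and Atad2 -0.30 (adjusted p = 0.334).

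None of 4 sirtuins, the deacetylases that use NAD, passed at any time. Sirt7 had -0.49 at 24 h (adjusted p = 0.164), Sirt6 -0.50 at 12 h (adjusted p = 0.348) and Sirt5 -0.38 at 24 h (adjusted p = 0.403). None of 14 genes for acetyltransferases or subunits of their complexes passed either. The nearest were the subunit Ing4 at -0.41 (adjusted p = 0.0892), the enzyme Kat7 at -0.38 (adjusted p = 0.128) and the subunit Tada2a at 0.25 (adjusted p = 0.305), all at 24 h. Of 11 genes known to be raised by deacetylase inhibitors in cultured cells none passed. Klf4 had 0.39 (adjusted p = 0.0576) and Klf6 0.40 (adjusted p = 0.0676) at 24 h, and Clu, which is also among the Sertoli markers above, 0.36 at 12 h (adjusted p = 0.0955). Txnip of the same 11 genes went the other way, with -0.50 at 12 h and -0.54 at 24 h (adjusted p = 0.189 and 0.105 in limma). At an unadjusted p under 0.05 the counts of this list were 0, 0, 2 and 3 higher and 0, 0, 1 and 1 lower at 4, 8, 12 and 24 h. That is 3 and 4 of the 11 genes at 12 and 24 h, where 14.7% and 14.3% of all probes reached this threshold.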

How the data were processed

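Arrays of 2 colours of testis RNA from 47 rats were analysed. Per the file headers, each array file deposited by the authors holds raw intensity values of 2 channels up to 65535 for 22573 spots, processed intensities, a ratio and flags, with no background column. The authors' deposited ratio is a log2 ratio of the channels headed Cy3 and Cy5. The sources used here do not give scanner settings or how the authors normalized. Spots with no processed value on any array, 2073 in number, were dropped, and 20500 probes remained. In the deposited table of the series, 39 of 47 columns equal the log2 ratio of another array, 7 their own and 1 none (tolerance 1e-06), so it served only as an alternative.

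Raw intensities, with testis as Cy3, were normalized by loess within each array to M, with no background correction. One foreseen with deposited background values could not be made. The fit to M used lmFit and eBayes of limma 3.58.1 (R 4.3.3, two-sided) over the 8 groups, with 12 hybridisation dates as a fixed term, 28 residual and 6.75 prior degrees of freedom. Of the dates 8 held both treatments, 2 MAA only and 2 saline only. P-values were adjusted by Benjamini-Hochberg over 20500 probes. The code was tested on simulated data. A probe is above background where the deposited flag says so. The number of arrays limits the precision. Each array is 1 rat, and animal numbers do not recur between groups.

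Symbols from the platform annotation and RefSeq gave 12736 probes 1 symbol, 5 several and 7759 none. Named are every Hdac probe, in each list the 3 genes whose adjusted p was lowest at any time and any other that passed, and the 3 genes most like each Hdac probe. Some further list members are named where they went another way. Lists took the probe brightest in testis. The members and lists were chosen with earlier results of these data known. Alternatives were median centring, the testis channel alone, the deposited ratio, no date or a random date, scale normalization, a filter on dim probes, single times and leaving out each array. Chosen after seeing the data were the processed channels, loess over all spots and the series table. Single times and the series table were not read for the list genes, so their counts of settings differ from that of Hdac1.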

Additional observations from a re-analysis of the deposited data

Results flagged for a closer look

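Of 64 combinations of a group and an Hdac probe, 1 held a testis that stood apart from the rest of its group, and chance alone sets a sample apart in about 1 in 20 groups. In the saline group of 8 h, animal 21 had an Hdac6 M of -0.094, while the other 5 saline testes lay between -0.75 and -0.56. Its gap to the nearest of them was 0.701 of the whole range. Without this animal the Hdac6 change at 8 h was 0.45 (limma, adjusted p = 0.503), against 0.36 with it. The array was above background for this probe.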

How the results depend on the processing

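Hdac1 at 12 h (0.43, passed) also passed with a filter on dim probes, without MAA_12h animal 27 and with loess over all spots. It did not pass with median centring (0.17), at 0.32 with the testis channel alone, 0.30 with the deposited ratio, 0.36 without the date, 0.37 with the date as a random block, 0.38 with scale normalization, 0.36 with the processed channels, 0.51 with only that time's arrays and -0.043 with the series table as labelled. It lay between 0.37 and 0.49 in fits without 1 array. Adjusted p ran from 0.0137 to 0.980 over these settings, the highest being that of the series table. The number of Hdac probes that passed at 12 h was 0 under those that lost Hdac1, 2 with the dim filter and 0 to 2 without 1 array, against 1 as reported; at 4, 8 and 24 h it was 0 in every setting run. Of the 94 list genes 1 (median centring) and 6 (dim filter, 79 genes left) passed at 12 h against 3, and 2 (median centring), 10 (testis channel alone) and 8 (dim filter) at 24 h against 5. Over all probes the number that passed ran from 153 (median centring) to 883 (dim filter) at 12 h against 520, and from 193 (median centring) to 1075 (testis channel alone) at 24 h against 612; it ran from 4 to 17 at 4 h against 4 and from 1 to 32 at 8 h against 2, and with the series table it was 0 at each time. No other Hdac value that turned its sign had passed. With median centring these were Hdac2 at 4 h (0.047), Hdac1 at 8 h (-0.088), Hdac5 probe 1165 and Hdac11 at 12 h (0.015 and -0.044), and Hdac1, Hdac3, Hdac6, Hdac8 and Hdac11 at 24 h (-0.26, -0.064, -0.086, 0.090 and -0.13). With the testis channel alone they were Hdac2 at 4 h (0.053), Hdac5 probes 1165 and 16483 at 8 h (-0.092 and 0.11), probe 1165 at 12 h (0.0078) and Hdac2 at 24 h (-0.11). Hdac1 at 8 h, Hdac5 probe 1165 at 12 h and Hdac8 at 24 h gave -0.022, 0.027 and 0.026 without the date and -0.015, 0.0045 and 0.012 with a random date. Hdac1 and Hdac5 probe 16483 at 8 h, probe 1165 at 12 h and Hdac3 at 24 h gave -0.0085, 0.038, 0.0082 and -0.088 with only that time's arrays. The processed channels gave 0.0049 for Hdac5 probe 16483 at 8 h, 9.2e-05 for probe 1165 at 12 h, and -0.010, -0.0095 and -0.0011 for Hdac1, Hdac3 and Hdac6 at 24 h, where the deposited ratio gave -0.016, -0.019 and -0.017. Without MAA_12h animal 27 Hdac5 probe 16483 at 8 h gave 0.0028. Without 1 array, the ranges that crossed 0 were -0.14 to 0.0025 for Hdac2 and -0.028 to 0.29 for Hdac5 probe 16483 at 4 h; -0.015 to 0.054 for Hdac1, -0.14 to 0.13 for Hdac5 probe 1165 and -0.11 to 0.087 for probe 16483 at 8 h; -0.15 to 0.043 for Hdac3 and -0.20 to 0.051 for Hdac5 probe 1165 at 12 h; and -0.032 to 0.11 for Hdac2, -0.016 to 0.15 for Hdac3, -0.073 to 0.091 for Hdac6 and -0.14 to 0.057 for Hdac8 at 24 h. The causes were not tested. Signal limits Hdac8 and Hdac5 probe 1165, above background on 8 and 4 of 47 arrays. No paired analysis was possible because animal numbers do not recur between groups.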
